A study of Saccharomyces cerevisiae with 6 samples.

Results

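The small ribosomal subunit of budding yeast is built from ribosomal RNA and a set of RPS proteins that form its head, body and platform. Most RPS genes exist as paralog pairs, written A and B, whose proteins are nearly the same, and many of them carry 1 intron close to the start codon. Ribosomal protein genes are few in number, but they are transcribed so heavily that they supply much of the pre-mRNA that the yeast spliceosome handles. The spliceosome recognizes a 5′ splice site (5′SS), a branchpoint (BP) and a 3′ splice site (3′SS), and the choice of each can be influenced by how fast RNA polymerase II (RNAPII) delivers them.

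The genes described here are the intron-containing RPS genes other than RPS9A, RPS9B, RPS14A, RPS14B and RPS22B, which were left out by name. They were found by gene name in the tables of reads per read class and number 31 of the 312 genes in those tables. The 312 also include 45 genes joined by a frameshift rather than by splicing, and 3 mitochondrial genes. Such genes were not removed from the shares and medians given below for all genes tested. They form 15 paralog pairs plus RPS13, which has no paralog. The head of the subunit is represented by 10 of them and the body and platform by 21.

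Total RNA, depleted of ribosomal RNA, was sequenced from Saccharomyces cerevisiae in log phase in YPDA medium. There were 3 strains with 2 independent cultures each, 6 libraries in all: WT (CKY690, RPB1), fast (CKY772, rpb1-G1097D) and slow (CKY691, rpb1-H1085Y). The mutations lie in the trigger loop of the largest RNAPII subunit, and the strains are named for the elongation rates of the purified enzymes. In all strains, WT included, the chromosomal RPB1 gene was deleted and RPB1 or its mutant was supplied from a LEU2 plasmid, and UPF1 was deleted. Upf1 is needed for nonsense-mediated decay (NMD), so transcripts that NMD would remove can persist in every strain, and no strain with active NMD was sequenced. Each library is a population of cells, so RNA per cell was not measured. The alleles themselves could not be checked against the labels, because RPB1 and UPF1 are not rows of these tables.

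The read-class tables hold 7682741 to 11033195 reads per library. The 31 genes had 558630 to 782169 junction reads per library, which cross from exon 1 into exon 2 and were taken as mRNA. This was 32.9 to 33.7% of all junction reads in the tables. They had 60517 to 114604 pre-mRNA reads, the sum of reads over the 5′ boundary, within the intron and over the 3′ boundary of the intron. A second table, written by the aligner STAR, counts split reads at each splice junction and gave the 31 annotated junctions 1192880 to 1857445 uniquely mapped reads per library. Slow replicate 1 was the shallowest library by each of these counts.

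The splice sites were read from the R64 genome at the intron coordinates. The introns of these genes were 256 to 551 nt long with a median of 401 nt. The median was 143 nt for 247 introns in the tables and 404 nt for the 50 introns of large-subunit (RPL) genes. The 5′SS was GTATGT in 22 of 31 introns (71.0%, and 74.9% of all introns), GTACGT in 6 (RPS17B, RPS19A, RPS19B, RPS21B, RPS30A and RPS30B; 9.31% of all) and GTATGA in 3 (RPS6A, RPS11A and RPS11B; 2.43% of all). One 5′SS of each kind is shown to place these letters in their genes, with 6 exon bases, the hexamer in capitals and 6 further intron bases:
RPS13: agtgccGTATGTttatta
RPS17B: aaaatgGTACGTaccacg
RPS11A: caaaagGTATGAatttag

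The BP motif TACTAAC, searched on the sense strand, was present in 83.8% of all introns and in 98% of RPL introns. Of the RPS introns described here, 30 of 31 (96.8%) had it. The exception, RPS21A, had AACTAAC, which 5.26% of all introns hold. From the branch adenosine to the end of the intron the distance ran from 19 nt in RPS11B to 82 nt in RPS4A, with a median of 39 nt (34 nt over all introns). The 3′SS was CAG in 15 introns and TAG in 16. The stretch from the BP to the 3′SS is shown for the genes on which the results below turn and for RPS21A, with the BP motif and the last 3 intron bases in capitals and 6 bases of exon 2 at the end:
RPS13: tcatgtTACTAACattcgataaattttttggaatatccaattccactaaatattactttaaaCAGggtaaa
RPS27A: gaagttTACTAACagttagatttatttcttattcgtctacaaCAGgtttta
RPS27B: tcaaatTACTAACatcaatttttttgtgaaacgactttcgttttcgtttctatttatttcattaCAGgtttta
RPS11A: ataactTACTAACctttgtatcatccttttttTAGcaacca
RPS6B: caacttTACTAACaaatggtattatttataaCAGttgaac
RPS21A: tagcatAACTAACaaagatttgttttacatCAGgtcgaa

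Steady-state splicing was described by the pre-mRNA fraction, the pre-mRNA reads as a percentage of pre-mRNA plus junction reads. In WT it spanned a wide range among these genes: the median was 8.79% in replicate 1 and 8.31% in replicate 2, and individual genes ran from 2.61 to 73.0%. Large-subunit (RPL) genes had WT medians of 15.2 and 16.0%, and all 250 genes with enough reads for the test had 17.7 and 17.9%. The genes with the 4 highest WT means were RPS27A, RPS13, RPS24B and RPS24A, and those with the 4 lowest were RPS11A, RPS18B, RPS21B and RPS7A. This order and the width of the range depend on the mRNA count. By uniquely mapped STAR junction reads individual genes ran from 1.41 to 29.3% in WT. The pre-mRNA reads in the fractions by STAR still came from the read-class counts, so their 2 sides were not counted alike. With uniquely mapped STAR junction reads in place of the junction class, the highest WT means were 28.2% for RPS13, 18.7% for RPS27A, 9.27% for RPS17A and 9.10% for RPS24A, while RPS24B had 7.17%, and the lowest were 1.505% for RPS4A and 1.68% for RPS21B. The fractions that follow use the junction class unless STAR is named.

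RPS27A encodes a zinc-finger protein of the subunit. Its pre-mRNA fraction was 73.0 and 67.3% for WT, 66.8 and 74.8% for fast, and 70.5 and 73.9% for slow. The 3 strains overlapped. RPS13, a protein of the platform and the counterpart of bacterial S15, had 59.4 and 59.4% for WT, 71.9 and 71.9% for fast, and 56.8 and 57.3% for slow. Both fast libraries lay above every other library for RPS13, and both slow libraries lay below WT.

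RPS24A and RPS24B encode a protein required for early steps of small-subunit rRNA processing. The fraction of RPS24B was 38.1 and 35.1% for WT, 26.0 and 33.0% for fast, and 27.0 and 32.0% for slow, so that both mutants lay below WT. RPS24A had 32.1 and 31.8% for WT, 37.1 and 39.7% for fast, and 27.2 and 32.0% for slow. Fast lay above WT for RPS24A, opposite in direction to its paralog, while slow overlapped WT.

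At the low end, RPS11A, a body protein, had 2.67 and 2.61% for WT, 4.01 and 4.20% for fast, and 2.18 and 2.83% for slow. RPS18B, a head protein and the counterpart of bacterial S13, had 2.78 and 3.04% for WT, 3.72 and 4.22% for fast, and 3.70 and 2.80% for slow. For both genes fast lay above WT and slow overlapped it. RPS21B, whose protein sits beside Rps0 in the body, had 3.13 and 3.55% for WT, 2.34 and 2.74% for fast, and 2.90 and 2.90% for slow. Here both mutants lay below WT. RPS7A, a protein needed for early small-subunit rRNA processing, had 3.64 and 3.94% for WT, 3.79 and 3.95% for fast, and 4.38 and 4.17% for slow, with slow above WT and fast overlapping it.

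**Figure D1:**
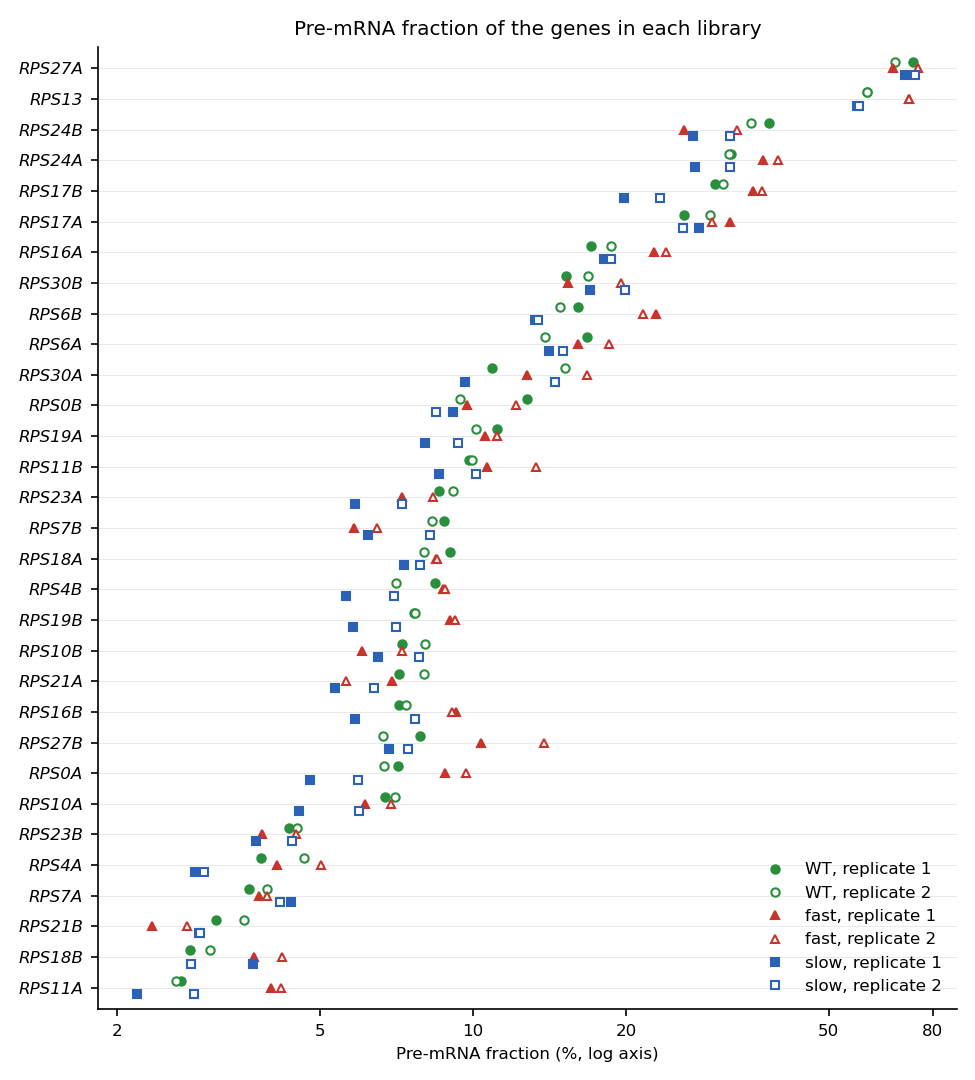
Pre-mRNA fraction in percent (x axis, log scale) of the 31 genes (y axis, ordered by the WT mean), with 1 point per library coloured by strain. The genes run from under 3% to over 70% in every strain, and for RPS13 the 2 fast points at 71.9% lie to the right of all others.

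The paralogs of a pair often differed from each other. Their coding sequences were 84.3 to 99.2% identical, and in 11 of 15 pairs the same paralog had the higher pre-mRNA fraction in all 6 libraries. RPS27 was the extreme, with a WT mean of 70.2% for RPS27A and 7.26% for RPS27B. By STAR junction reads these means were 18.7 and 2.21%, so that the order held at lower levels. In RPS6 the WT means were 15.3 and 15.5% by the junction class, with each paralog higher in 3 libraries, whereas by STAR junction reads they were 3.01% for RPS6A and 4.94% for RPS6B, and RPS6B was higher in all 6. By the STAR count 14 of 15 pairs kept 1 order in all libraries, and in 3 pairs the order of the WT means was turned against the junction class.

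The paralog with the longer intron had the higher WT fraction in 4 of 15 pairs by the junction class and in 7 of 15 by STAR junction reads. Across the 31 genes the correlation of intron length with the mean WT fraction was weak (Pearson's r = 0.11, Spearman's rho = 0.05, over genes that share libraries and, in pairs, sequence). The paralogs also differed in output: RPS27B had 5.46 to 7.13 times as many uniquely mapped STAR junction reads as RPS27A, RPS30A 3.64 to 6.65 times as many as RPS30B, and RPS17A 2.63 to 3.59 times as many as RPS17B. Reads that fit both paralogs were few, and at most 2.53% of the STAR junction reads of a gene mapped to several places (RPS17A), although this does not bound reads placed on the wrong copy.

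In the fast strain, 4 of the 31 genes had a higher pre-mRNA to mRNA ratio than WT and none had a lower one (edgeR quasi-likelihood test on pre-mRNA against junction reads, adjusted p below 0.05). Of all 250 genes tested, 6.0% were called higher in this comparison. With the frameshift and mitochondrial genes left out, edgeR called the same 4 of the 31 genes. The share over all genes in that fit is not reported here. The 4 genes were RPS13, RPS27B, RPS11A and RPS6B, all in the body and platform list (4 of 21), while 0 of 10 head genes were called by edgeR (3 at an unadjusted p below 0.05, and 2 called by DESeq2); whether head and body differ was not tested. Over the 31 genes the median log2 change was 0.20, and 21 were above 0 and 10 below, against a median of 0.03 over all genes tested. The RPL genes had a median of 0.29, with 7 of 50 called higher and 3 lower.

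RPS13 (chromosome IV, intron 579479 to 580017) changed by 0.81 on the log2 scale in edgeR (SE 0.107, adjusted p = 0.00696). Its pre-mRNA reads, in counts scaled to library size (CPM), were 46636 and 42601 in WT and 64559 and 61107 in fast, and its junction reads in CPM were 8224 and 7559 in WT and 6298 and 6438 in fast. Neither count overlapped between WT and fast. The uniquely mapped STAR junction reads of RPS13, however, did overlap, at 12232 and 13056 CPM in WT and 12283 and 12555 in fast.

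RPS27B (chromosome VIII, 148117 to 148666, minus strand) had pre-mRNA fractions of 7.86 and 6.66% for WT, 10.4 and 13.8% for fast, and 6.83 and 7.45% for slow. Fast lay above WT, with a wider gap between its 2 libraries than WT had. The edgeR log2 change was 0.80 (SE 0.180, adjusted p = 0.031). Its pre-mRNA reads in CPM were 3880 and 3451 in WT and 3717 and 4687 in fast and overlapped, whereas its junction reads in CPM were 11727 and 12534 in WT and 8014 and 7927 in fast and did not.

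RPS11A (chromosome IV, 491560 to 491898) changed by 0.66 (SE 0.142, edgeR adjusted p = 0.0299) between the fractions given above. RPS6B, whose protein is phosphorylated downstream of TOR signalling (chromosome II, 592417 to 592768, minus strand), had 16.1 and 14.8% for WT, 22.9 and 21.6% for fast, and 13.2 and 13.4% for slow. The 3 strains did not overlap for RPS6B. The edgeR log2 change of RPS6B in fast was 0.65 (SE 0.128, adjusted p = 0.0295). RPS23B, whose protein is the counterpart of bacterial S12 at the decoding centre, had 4.36 and 4.50% for WT, 3.85 and 4.48% for fast, and 3.74 and 4.41% for slow, and its log2 change of -0.10 in fast was not called (edgeR adjusted p = 0.673).

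By the libraries alone, both fast libraries lay above both WT libraries in pre-mRNA fraction for 14 of 31 genes (32.0% of all genes tested) and below them for 6 (26.8%). The calls rest on few replicates: without either WT library edgeR called 0 of the 31 genes, at an adjusted p of 0.0843 and 0.0782 for RPS13, and without fast replicate 2 it called RPS13 alone. DESeq2 called 9 genes, 7 higher and 2 lower, among them the same 4, where it called 14.4% of all genes higher and 6.4% lower.

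**Figure D2:**
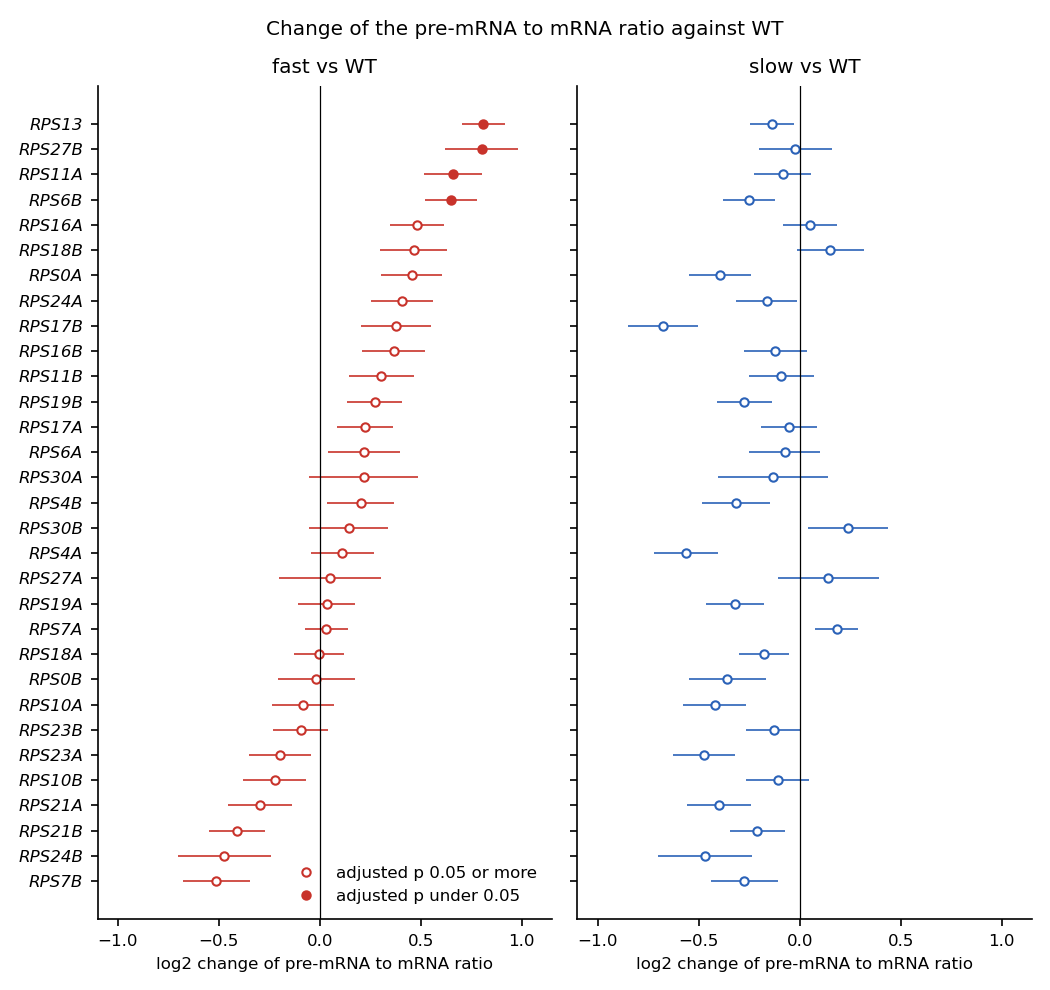
Log2 difference in pre-mRNA to mRNA ratio against WT (x axis) for each gene (y axis), in fast and in slow, from edgeR, with bars of 1 standard error and called genes filled. In fast RPS13, RPS27B, RPS11A and RPS6B are called, and in slow no gene is called and 26 of 31 lie below 0.

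The outcome in fast depended on which table supplied the mRNA count. The junction class of the read-class tables held only a share of the reads that STAR reported at the same annotated junction, and this share was lower in fast. Its median over the 31 genes was 48.1 and 49.97% for WT, 40.5 and 37.4% for fast, and 49.4 and 49.8% for slow. Both fast libraries lay below both WT libraries for 25 of 31 genes (66.1% of all 227 genes compared) and above them for 2 (3.96%).

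For RPS13 the share was 28.3 and 25.5% for WT, 19.2 and 19.0% for fast, and 27.8 and 27.2% for slow. RPS27B had 27.0 and 31.1% for WT, 16.4 and 17.3% for fast, and 28.6 and 31.5% for slow, and RPS11A had 77.6 and 78.8%, 62.3 and 62.3%, and 78.9 and 79.2% in the same order. Fast lay below the other strains in each of these. RPS7A and RPS7B held 97.1 to 99.1% in every library, and RPS27A, at 9.45 and 9.98% in WT and 12.1 and 10.2% in fast, was 1 of the 2 genes in which both fast libraries lay above WT.

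Across the 31 genes the WT share rose with the coding length of exon 1 (r = 0.81, rho = 0.78), which was 3 to 144 nt with a median of 24 nt and equal within every paralog pair. Without RPS7A and RPS7B, which have the longest first exons, r was 0.67 and rho 0.73. The mean WT pre-mRNA fraction was lower in genes with a higher WT share (r = -0.60, rho = -0.69). It was also lower in genes with a longer exon 1 (rho = -0.58), and less so by STAR junction reads (rho = -0.25). The range of WT fractions thus cannot be read as a difference in splicing alone. The points share libraries and paralogs share sequence, so these correlations are descriptions. The part of exon 1 length, insert size or any other property in these shares and fractions was not tested.

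**Figure D3:**
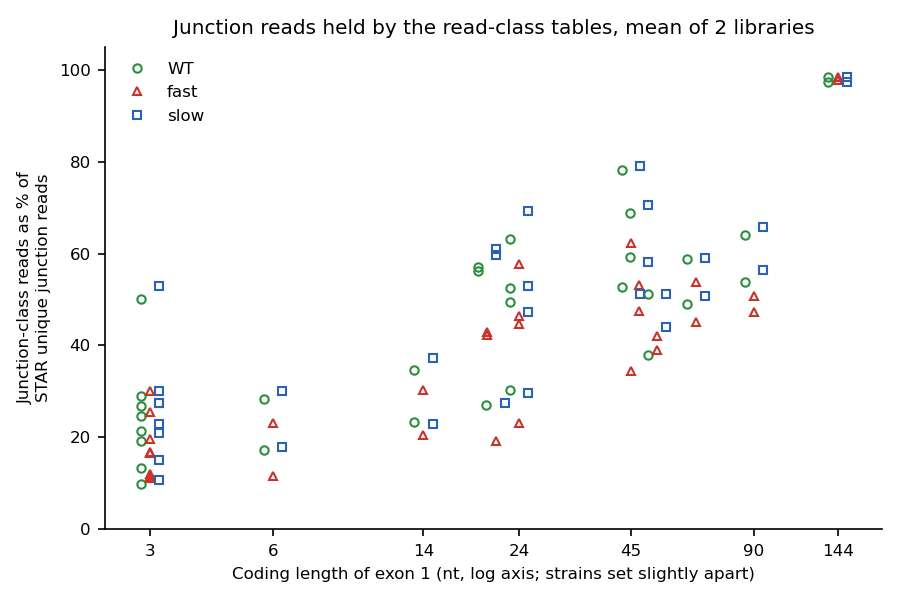
Share of uniquely mapped STAR junction reads held by the junction class, in percent (y axis), against the coding length of exon 1 in nt (x axis, log scale), with 1 point per gene and strain (mean of 2 libraries). The share is about 30% or lower for most genes with a first exon of 3 nt and over 97% for RPS7A and RPS7B, and most fast points lie below the WT points of the same gene.

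With the uniquely mapped STAR junction reads taken as mRNA, a setting chosen after seeing the data, the picture in fast was different. The pre-mRNA reads in this ratio still came from the read-class counts, so its 2 sides were not counted alike. Whether the pre-mRNA classes also held a lower share of reads in fast was not tested. The values are therefore not a like-for-like replacement of those with the junction class. None of the 31 genes was called higher by edgeR (2 at an unadjusted p below 0.05) and 1, RPS24B, was lower (log2 change -0.69, edgeR adjusted p = 0.038; 7.59% of 237 genes were lower). RPS13 had a log2 change of 0.32 (adjusted p = 0.12), RPS6B 0.34 (0.123), RPS11A 0.33 (0.166) and RPS27B 0.02 (0.949) in the same edgeR fit. The median over the 31 genes went from 0.20 to -0.18, 27 of 31 values were lower than with the junction class, and 8 changed sign. The median over all genes was then -0.24. By this count the pre-mRNA fraction of RPS13 was 29.3 and 27.2% in WT and 32.9 and 32.8% in fast, so that fast still lay above WT, and both fast libraries lay above WT for 6 of 31 genes (18.1%) and below for 16 (48.5%).

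**Figure D4:**
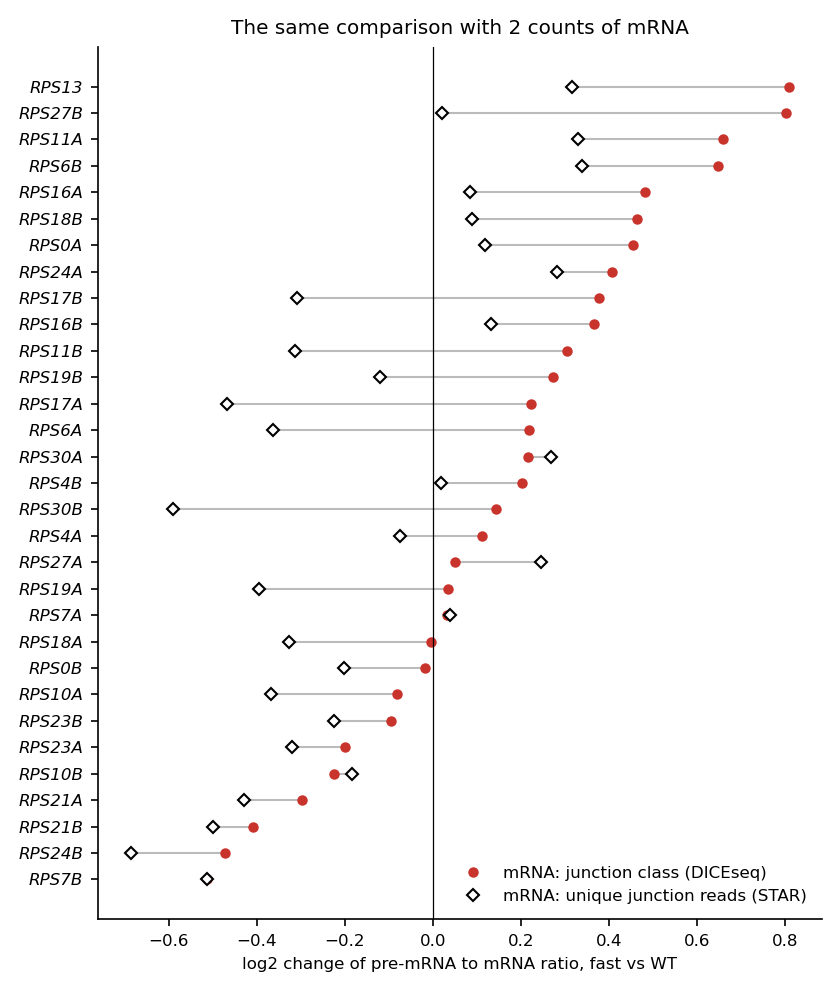
Log2 difference in pre-mRNA to mRNA ratio in fast against WT (x axis) for each gene (y axis), with mRNA counted from the junction class or from uniquely mapped STAR junction reads. For 27 of 31 genes the STAR value lies to the left, and RPS27B moves from 0.80 to 0.02.

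In the slow strain no gene of the 31 was called for the pre-mRNA to mRNA ratio by edgeR, and 6 were lower at an unadjusted p below 0.05 in that test. DESeq2 called 2 lower (4.4% of all genes). Of all genes tested, 0.4% were called lower by edgeR. The direction was shared all the same: 26 of 31 log2 changes were below 0, with a median of -0.16, against -0.18 over all genes tested and -0.07 over the RPL genes. Both slow libraries lay below both WT libraries for 16 of 31 genes (36.4% of all genes) and above for 2 (13.2%). With STAR junction reads as mRNA the median of the 31 genes was -0.13 and again edgeR called none, with 4 lower at an unadjusted p below 0.05.

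Fast and slow were also compared with each other, in the fit over all 6 libraries. Here 9 of the 31 genes had a higher ratio in fast and none a lower one, with 10.8% of all genes tested called higher. RPS17B, a head protein, differed most (log2 difference 1.05, SE 0.174, edgeR adjusted p = 0.00915), with pre-mRNA fractions of 35.6 and 37.0% in fast and 19.8 and 23.3% in slow. WT lay between at 29.9 and 31.0%. RPS13 followed at 0.95, RPS6B at 0.90, RPS0A at 0.85, RPS27B at 0.82, RPS11A at 0.74, RPS4A at 0.67, RPS24A at 0.57 and RPS19B at 0.55. The median over the 31 genes was 0.34, and over all genes 0.21. When the WT libraries were left out of the fit 3 of the 31 genes were called, and without slow replicate 1 it was 1. With STAR junction reads as mRNA none was called higher and 1, RPS30B, was lower (log2 difference -0.91, edgeR adjusted p = 0.0163; 5.06% of all genes lower).

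The levels of spliced and unspliced RNA were then tested separately. In bulk RNA from a culture, fewer molecules per cell and a changed composition of the whole cannot be told apart, and all levels are relative to TMM scaling over the genes of the table. Slow had lower junction reads than WT for 24 of the 31 genes and higher for none, where 28.3% of all 265 genes tested were lower. The median log2 change was -0.31, against 0.05 over all genes, and the RPL genes behaved alike with 38 of 50 lower.

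The changes with the 4 largest sizes in slow were those of RPS27A, RPS17A, RPS16B and RPS11B. RPS27A had 737 and 737 junction reads (CPM) in WT and 541 and 495 in slow (log2 change -0.51, edgeR adjusted p = 0.0148). RPS17A had 12640 and 10778 in WT and 8036 and 8446 in slow (-0.51, 1.84e-07). RPS16B, the counterpart of bacterial S9 whose tail reaches the P site, had 14209 and 13511 in WT and 9876 and 9841 in slow (-0.49, 1.84e-07). In all of these, slow lay below WT. RPS11B had 13966 and 12778 in WT and 9977 and 9366 in slow (log2 change -0.47, edgeR adjusted p = 7.78e-07), also without overlap.

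Counting STAR junction reads instead gave 12 genes lower in slow (19.2% of 234 genes), with a median of -0.15 against 0.11 over all genes, and the log2 changes of RPS27A, RPS17A, RPS16B and RPS11B were then -0.43, -0.34, -0.30 and -0.22, each still called. Leaving out slow replicate 1 left 6 calls, leaving out slow replicate 2 left 11, leaving out WT replicate 1 left 15, and leaving out fast replicate 2, which enters only through the shared spread and scaling, left 10. Scaling by library totals moved the median of all genes to -0.11 in slow and left 16 of the 31 lower (21.1% of all genes).

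In fast, junction reads of 8 genes were lower (14.3% of all genes) and of 2 higher (10.2%). The lower ones with the largest change were RPS27B, RPS17A, RPS6A and RPS18B. RPS27B changed by -0.61 (edgeR adjusted p = 1.26e-09). RPS17A had 12640 and 10778 CPM in WT and 8848 and 8511 in fast (-0.43, adjusted p = 1.9e-05). RPS6A had 3863 and 4437 in WT and 3098 and 3134 in fast (-0.41, 0.000486). Fast lay below WT for all 3 genes.

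RPS18B had 14647 and 16522 in WT and 11656 and 11997 in fast (-0.40, edgeR adjusted p = 4.61e-05). With STAR junction reads the same 4 genes changed by -0.03, 0.05, -0.04 and -0.23 and none of the 4 was called, while 3 of the 31 genes were higher (11.1% of all genes) and 2 lower (6.84%). One of the lower ones was RPS27A, at -0.37 (edgeR adjusted p = 0.00104). The 2 genes with higher junction-class reads, RPS10B (0.35) and RPS30A (0.34), changed by 0.10 and 0.09 by the STAR count, also uncalled. Scaling by library totals, which moved the median of all genes to -0.14, gave 3 genes lower (7.17% of all genes) and none higher by the junction class.

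Pre-mRNA reads in fast were higher for RPS30A (0.57), RPS13 (0.49), RPS24A (0.49) and RPS6B (0.48), which is 4 of 31 genes with 10.4% of all 259 genes tested higher. RPS30A, whose mammalian counterpart is made as a fusion with a ubiquitin-like protein, had 4872 and 5396 pre-mRNA reads (CPM) in WT and 6798 and 8437 in fast. RPS24A had 9138 and 9059 in WT and 12536 and 13026 in fast. Neither gene overlapped between the strains. RPS7B was the 1 lower gene (6.95% of all genes lower), with 5324 and 4415 in WT and 3332 and 3018 in fast (log2 change -0.62, edgeR adjusted p = 0.000837).

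None of these 5 pre-mRNA changes was called when libraries were scaled by their totals, which moved the median of all genes to -0.13. In slow, pre-mRNA reads of 13 genes were lower and of none higher (13.5% of all genes lower), with a median of -0.28, and under scaling by totals 16 were lower (17.4% of all genes) with the median of all genes at -0.37. Without slow replicate 1 the count was 1, without WT replicate 1 it was 2, without WT replicate 2 it was 3 and without slow replicate 2 it was 7. Thus in slow both kinds of read were lower in a larger share of these genes than of all genes tested, and the ratio between them was not called for any of the 31.

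Splicing errors were followed at 51 unannotated splice sites in 25 of the 31 genes, of 287 such sites in all genes; 6 of the genes had none. An error frequency is given as uniquely mapped reads using the unannotated site per 100000 reads using the annotated junction of the same intron. There were 36 unannotated 3′SSs, 27 of them downstream and 9 upstream of the annotated site, and 15 unannotated 5′SSs, 11 downstream and 4 upstream. Of the 51 sites 33 lay within 50 nt of the annotated one, and for 41 the shift was not a multiple of 3 nt. Some of these 41 lie beyond the coding part of the exon, such as an RPS30A 5′SS 92 nt upstream where exon 1 has 3 coding nt. A reading frame does not apply to such sites. At the others an out-of-frame product can be a target of NMD in UPF1-containing cells.

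Errors were rare. Pooled over the 51 sites the frequency was 104 and 121 per 100000 for WT, 137 and 159 for fast, and 125 and 104 for slow, so that fast lay above WT and slow overlapped it. This pooled frequency is per 100000 annotated junction reads of all the genes described here, including those without such a site. After adding up the 2 libraries of each strain, Fisher's exact test, at p below 0.01 and a false discovery rate below 0.03, called 24 sites in fast, 17 higher and 7 lower, where 35.9% of all sites were called higher and 16.7% lower. In slow it called 22, 10 higher and 12 lower, where the shares over all sites were 28.6 and 20.6%. This test compares summed reads and takes no account of the spread between libraries: edgeR, which does, called 0 of 285 sites in either strain, with 6 of the 51 at an unadjusted p below 0.05 in fast and 5 in slow. DESeq2 called 4 of the 51 in fast and 0 in slow. Both fast libraries lay beyond both WT libraries in the called direction for 16 of the 17 higher and 5 of the 7 lower sites, and both slow libraries for 8 of 10 and 8 of 12. Of all 287 sites, 30.3% were called higher and 12.9% lower with the libraries apart in this way in fast, and 20.2 and 13.9% in slow.

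The sites with the largest differences and no overlap with WT were in RPS27A, RPS0A, RPS7A, RPS6B, RPS16A and RPS19A. Their sequences are given with those of paralogs and of the RPS27B and RPS23B sites. For short shifts the annotated 3′SS and the unannotated one are both in capitals, in the order in which they lie along the transcript; for the remote 3′SSs of RPS6B and RPS7A and the 5′SSs of RPS19A and RPS27B only the unannotated site is shown and capitalized:
RPS27A 3′SS: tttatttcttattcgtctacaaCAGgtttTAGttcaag
RPS27B 3′SS: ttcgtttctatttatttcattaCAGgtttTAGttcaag
RPS0A 3′SS: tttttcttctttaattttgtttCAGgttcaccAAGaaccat
RPS0B 3′SS: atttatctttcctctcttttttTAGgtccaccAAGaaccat
RPS16A 3′SS: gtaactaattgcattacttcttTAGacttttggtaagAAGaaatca
RPS23B 3′SS: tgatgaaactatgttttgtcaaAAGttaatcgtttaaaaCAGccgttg
RPS6B 3′SS: gataaacgtatacccacaaatTAGtgcact
RPS7A 3′SS: atggagagtaacaaaggaaaaAAGtgtgaa
RPS19A 5′SS: tgaaacGTAATGgttaat
RPS27B 5′SS: ataggaGTATGCgtttcc

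The TAG that lies 7 nt downstream of the annotated 3′SS is shared by RPS27A and RPS27B, which read alike across it. In RPS27A it was used at 91.2 and 193 per 100000 for WT, 296 and 370 for fast, and 142 and 177 for slow (2.34-fold in fast, Fisher false discovery rate 6.26e-06, edgeR adjusted p = 0.342). Fast lay above WT and slow within its range. In RPS27B the same site was used at 91.7 and 125 for WT, 78.9 and 79.3 for fast, and 67.3 and 36.9 for slow, so that both mutants lay below WT (0.73-fold in fast and 0.481-fold in slow; Fisher false discovery rates 0.0122 and 2.09e-07, edgeR adjusted p = 0.866 and 0.549).

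The RPS0 pair, whose proteins belong to the body of the subunit, also split. An AAG 10 nt downstream of the 3′SS was used in RPS0A at 75.2 and 116 per 100000 for WT, 108 and 103 for fast, and 331 and 231 for slow (2.95-fold in slow, Fisher false discovery rate 1.12e-13, edgeR adjusted p = 0.385). In RPS0B the AAG at the same distance was used at 75.4 and 109 for WT, 76.6 and 118 for fast, and 38.2 and 15.7 for slow (0.293-fold in slow, Fisher false discovery rate 1.16e-07, edgeR adjusted p = 0.434). Slow thus lay above WT in RPS0A and below it in RPS0B, and fast overlapped WT in both.

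RPS6B and RPS7A used 3′SSs far upstream, in the first part of the intron. The RPS6B site, 256 nt upstream of the annotated 3′SS, was used at 18.6 and 25.1 per 100000 for WT, 76.5 and 183 for fast, and 57.4 and 86.3 for slow (5.94-fold and 3.29-fold; Fisher false discovery rates 2.72e-23 and 9.79e-08, edgeR adjusted p = 0.223 and 0.512). The RPS7A site, 343 nt upstream, was used at 48.2 and 58.2 for WT, 138 and 155 for fast, and 191 and 170 for slow (2.75-fold and 3.4-fold; Fisher false discovery rates 3.71e-15 and 7.19e-21, edgeR adjusted p = 0.299 and 0.324). At both sites both mutants lay above WT, and at that in RPS7A the libraries of each strain were close together. A second upstream 3′SS of RPS7A, 308 nt from the annotated one, was used less, at 5.21 and 16.4 per 100000 for WT, 26.5 and 40.7 for fast, and 0 and 0 for slow. Here fast lay above WT and slow below it (Fisher false discovery rates 5.03e-05 and 0.000397, edgeR adjusted p = 0.445 and 0.324), although the 0 reads in slow allow up to 5.98 and 4.28 per 100000.

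In RPS16A an AAG 15 nt downstream of the 3′SS was used at 9.41 and 52.8 per 100000 for WT, 87.9 and 174 for fast, and 43.9 and 15.9 for slow (4.21-fold in fast, Fisher false discovery rate 5.95e-13, edgeR adjusted p = 0.363). In RPS19A, whose human counterpart is mutated in Diamond-Blackfan anaemia, a 5′SS 309 nt downstream of the annotated one was used at 192 and 160 for WT, 227 and 308 for fast, and 16.9 and 169 for slow (1.52-fold in fast, Fisher false discovery rate 0.00176, edgeR adjusted p = 0.897). Fast lay above WT at both sites. The slow libraries of RPS19A were far apart, 1 of them within the WT range.

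RPS27B had a 5′SS 158 nt downstream of the annotated one, used at 16.4 and 8.84 per 100000 for WT, 67.7 and 137 for fast, and 41.9 and 15.8 for slow. This was 8.12-fold higher in fast (Fisher false discovery rate 7.33e-30, edgeR adjusted p = 0.223), without overlap. RPS23B had an AAG 17 nt upstream of its 3′SS, used at 55.5 and 123 for WT, 181 and 165 for fast, and 92.3 and 97.0 for slow. It was 1.94-fold higher in fast (Fisher false discovery rate 1.3e-10, edgeR adjusted p = 0.535), again without overlap, whereas slow lay within the WT range. The fold differences given for these sites rest on 4 to 159 reads per library.

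**Figure D5:**
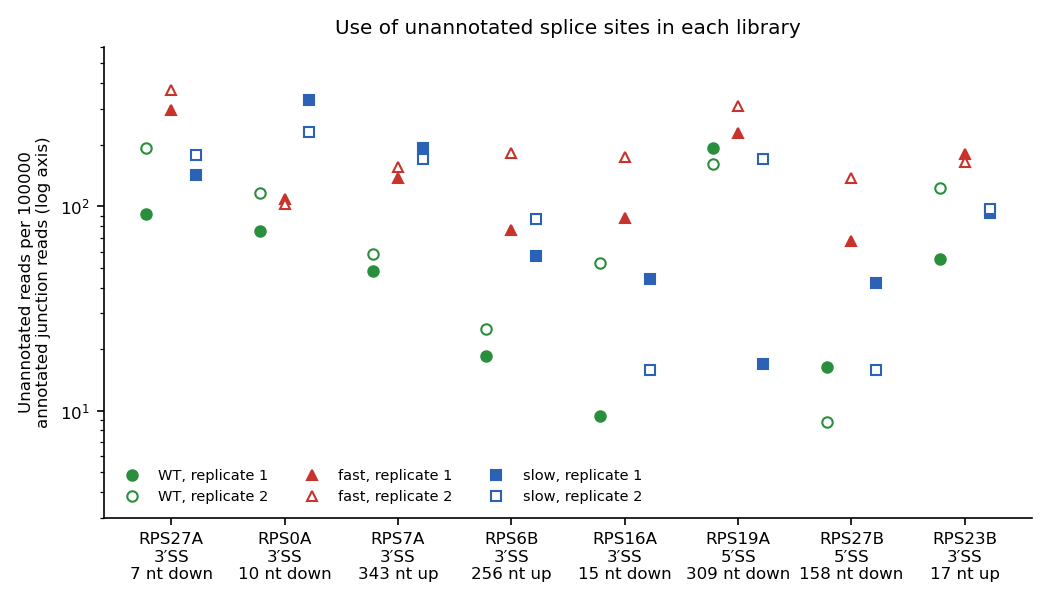
Reads at the named unannotated splice sites per 100000 reads at the annotated junction (y axis, log scale), with 1 point per library coloured by strain. At the RPS6B and RPS7A upstream 3′SSs both mutants lie above WT, at the RPS0A site slow alone does, and both fast libraries do at the 3′SSs of RPS27A, RPS16A and RPS23B and at the 5′SSs of RPS19A and RPS27B.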

How the data were processed

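Total RNA from 6 libraries (3 strains, 2 independent cultures each) was sequenced strand-specifically with paired ends. The authors aligned the reads with STAR to the S288C R64 genome (sacCer3) and counted them with dice-count of DICEseq, in versions not given in the sources used here. The deposited values are raw read counts: reads per class (5′ boundary, intron, 3′ boundary, junction) of each of 312 genes, and split reads per STAR junction, unique and multiply mapped. The deposited FPKM columns of the same classes, made by the authors, served only to find relative library totals for the scaling alternative.

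From these counts, pre-mRNA was the sum of boundary and intron reads and mRNA the junction reads. Genes whose libraries together held 10 or more pre-mRNA and 10 or more mRNA reads were tested with edgeR 4.0.16 (quasi-likelihood; R 4.3.3) over all 6 libraries. The ratio test fitted both counts of each library together, with the library as a block, and took the interaction of strain and read kind. Levels were tested on junction or pre-mRNA reads with TMM scaling, after edgeR's filterByExpr. P-values were adjusted by Benjamini-Hochberg over all genes tested, with a threshold of 0.05. Unannotated sites within 1000 nt of the annotated one, each seen in 5 or more unique reads per library in at least 1 strain, were tested by 2-sided Fisher's exact test on summed reads, and by edgeR and DESeq2 1.42.0. Splice sites came from the R64 reference, in which the ends of 264 of 264 annotated GT-AG junctions read GT and AG.

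Named were genes called for the ratio, the 4 highest and 4 lowest in WT fraction, RPS13, RPS27B, RPS23B and RPS6B, up to 6 genes with called unannotated sites by size of the difference where both mutant libraries lay beyond both WT libraries, and in each mutant the 4 largest called changes of junction reads. Others are named where a count or paralog turns on them. Some paralog comparisons are not reported here. The genes and lists were chosen with earlier results of these data known. The scripts were tested on simulated data. Depth gave exact (Clopper-Pearson) 95% intervals of a pre-mRNA fraction at most 3.09 percentage points wide; these cover counting error only, since PCR duplicates were not marked by molecular identifiers. Alternatives were DESeq2, other scalings and filters, boundary reads alone, only the strains compared, a replicate block and leaving out each library.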

Additional observations from a re-analysis of the deposited data

How the results depend on the processing

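The count of the 31 genes called for the pre-mRNA to mRNA ratio in fast against WT was 4, and it was 9 with DESeq2, 2 with only the 2 strains compared, 1 with STAR junction reads as mRNA and 0 with 3′ boundary reads over STAR junction reads; it ran from 0 to 3 when 1 library was left out. These counts take both directions together: 2 of the 9 with DESeq2 were lower, and the 1 with STAR junction reads was RPS24B, also lower. For slow against WT the count was 0, and 2 with DESeq2, both lower. For fast against slow it was 9, and 5 when pre-mRNA was counted from boundary reads only, 3 with only the 2 strains compared, 1 with STAR junction reads and 0 with 3′ boundary reads over STAR junction reads, and 1 to 8 when 1 library was left out. Between fast and slow, the 9 genes of the main fit were higher in fast, whereas the 1 with STAR junction reads was lower. The log2 change of RPS13 in fast ran from 0.20 to 0.81 over 15 alternatives and that of none of the 4 called genes changed sign. Junction reads in fast gave 10 calls, 3 with scaling by library totals, 5 with STAR junction reads and 7 to 10 with 1 library left out; in slow they gave 24, 12 with STAR junction reads and 6 to 24 with 1 library left out. Pre-mRNA reads in fast gave 5 calls, 0 with scaling by library totals and 2 to 6 with 1 library left out, and in slow 13, and 1 to 15. Unannotated sites gave 24 calls in fast by Fisher's exact test, 0 by edgeR and 4 by DESeq2 (21 to 23 with 1 library left out), and in slow 22, 0 by edgeR and 0 by DESeq2 (19 to 26). With 1 library left out, the lone library of its strain was assumed to vary like the others. The cause of these shifts was not tested.

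The replicate numbers were not shown to pair the samples: libraries with the same number deviated from their strain means with correlations of 0.06 (WT and fast), -0.31 (WT and slow) and 0.09 (fast and slow) over 229 genes. With a replicate block the ratio gave 5 calls in fast, 0 in slow and 9 between fast and slow, junction reads 13 and 26, pre-mRNA reads 7 and 15, and the unannotated sites 0 and 0 by edgeR. With the numbers crossed, a pairing chosen after seeing the data, the ratio gave 1 call in fast and 5 between fast and slow.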

Other observations

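The 5 small-subunit genes left out by name had mean WT pre-mRNA fractions from 6.66% (RPS14A) to 86.5% (RPS9A). RPS14A, whose protein lies in the platform, had 6.66% ± 0.150 (SD, n = 2) in WT and 15.3% ± 3.06 in fast, and RPS9A, a body protein, 86.5% ± 2.01 and 95.6% ± 0.0306. In edgeR their log2 changes of the pre-mRNA to mRNA ratio in fast were 1.33 and 1.75, both with an adjusted p = 0.00696, whereas RPS9B (0.05), RPS14B (-0.19) and RPS22B (-0.70) were not called. All of these values use the junction class as mRNA. Values with STAR junction reads are not reported here for these 5 genes, so their dependence on the mRNA count is not shown.

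The reads over the 3′ boundary of the intron outnumbered those over the 5′ boundary in 29 of the 31 genes, RPS7B and RPS18B excepted, by the sum of the WT libraries. The ratio ran from 0.581 in RPS7B to 94.9 in RPS24A, with a median of 3.70. The high end rests on few reads: RPS24A, with 3 coding nt in exon 1, had 40 and 35 reads over the 5′ boundary in WT. The part of exon 1 length in this ratio was not tested. Intron reads made up 10.3 to 68.1% of the pre-mRNA reads of a gene in WT.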
